A study of Mus musculus with 6 samples.

Results

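BiP, the HSP70 chaperone of the endoplasmic reticulum (ER), and the proteins that drive its cycle were examined at the level of their mRNA in mouse Lewis lung carcinoma (LLC) cells with and without targeting of calreticulin. The genes were chosen by symbol: Hspa5, which encodes BiP, the exchange factors Hyou1 and Sil1, the J proteins Dnajb9, Dnajb11, Dnajc1, Dnajc3 and Dnajc10, and the SDF2 partners Sdf2l1 and Sdf2. All 10 were present among the 55291 gene symbols of the table. A filter that required a mean of 10 normalised counts or more left 13199 genes for testing, among them all 10. LLC is a transplantable mouse lung tumour line. Calr KO cells (n = 3) received plasmids for Cas9 and a guide RNA against Calr, and control cells (n = 3, genotype given as WT) received Cas9 with a control guide. Both groups carried the plasmids transiently, were cultured for 10 days, and were then plated in 3 wells each and collected 48 hours later with no further treatment. All 6 carry the same batch label. The labels describe the replicates as wells of a group and name neither separate transductions nor clones, so the p-values measure the spread between wells, which may be technical, and not between independent knockouts.

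BiP binds exposed hydrophobic stretches of newly made secretory and membrane proteins and releases them in a cycle driven by ATP. J proteins deliver clients and trigger ATP hydrolysis, which locks BiP onto the client, and exchange factors remove ADP so that the client is let go. BiP also holds the stress sensors of the ER in an inactive state, and its gene is a classical target of the unfolded protein response, the programme by which cells adjust the folding capacity of the ER.

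The 6 libraries summed to between 14040692 and 14099985 normalised counts, an estimated 13571210 to 14918661 reads, and none stood apart (Pearson correlations of log2 values over tested genes of 0.985 to 0.986 within groups and 0.984 to 0.986 between groups). Calr itself fell in all 3 Calr KO libraries, from 10653 ± 426 to 4379 ± 141 normalised counts (SD, n = 3), a log2 change of -1.28 with an SE of 0.04 (limma adjusted p = 7.9e-07). Transcript thus remained, and mRNA does not measure edited alleles or protein. The cells held Krt8 (4770 ± 136 normalised counts with the Calr guide and 4472 ± 143 with the control guide) and Krt18, whereas 8 of 10 markers of lung and carcinoma epithelium had a mean under 10, and Epcam, Krt19, Nkx2-1, Sftpc and Scgb1a1 were at 0 in every library. Summed markers of macrophages (65.1 to 114 normalised counts in the Calr KO group, 75.5 to 97.1 in the control group), endothelium (57.0 to 66.5 against 47.6 to 70.6) and lymphocytes (7.16 to 9.74 against 0 to 5.98) were low. Of these 16 markers 4, Adgre1, Cd3e, Cd3d and Nkg7, were at 0 throughout. Summed fibroblast markers, mostly Pdgfra, overlapped between the groups (2123 to 2470 against 1982 to 2450). In bulk RNA a lower share of cells of a type and less RNA per cell cannot be told apart.

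Targeting of Calr was accompanied by more mRNA of 5 of the 10 genes, and 0 fell. The 5 that rose were Hspa5, Hyou1, Dnajb11, Dnajc3 and Sdf2l1, by between 1.39-fold and 1.73-fold. Sil1, Dnajb9, Dnajc10, Dnajc1 and Sdf2 did not pass the test. Each functional class beside BiP was divided: 1 of 2 exchange factors, 2 of 5 J proteins and 1 of 2 SDF2 partners rose. Over all tested genes, 0.197% were called as higher and 0.28% were called in either direction. In the 5 genes that rose, all 3 Calr KO libraries lay above all 3 controls, a pattern found in 7.57% of tested genes for higher values and in 14.8% for either direction. Genes called by a low p mostly have separate groups, so the pattern adds little to the calls. The median log2 change of the 10 genes was 0.32, against 0.00036 over all tested genes. Differences were tested with limma on log2(value + 1), with Benjamini-Hochberg adjustment over all 13199 genes and a threshold of 0.05. With a single variance prior in place of one that follows the mean, 0 of the 10 passed (limma adjusted p of 0.147 to 0.281 for the 5 genes), with the same log2 changes. Mitochondrially encoded transcripts took 2.89% to 2.97% of normalised counts in the Calr KO libraries and 2.78% to 2.80% in the controls. Their part in the result was not tested.

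**Figure D1:**
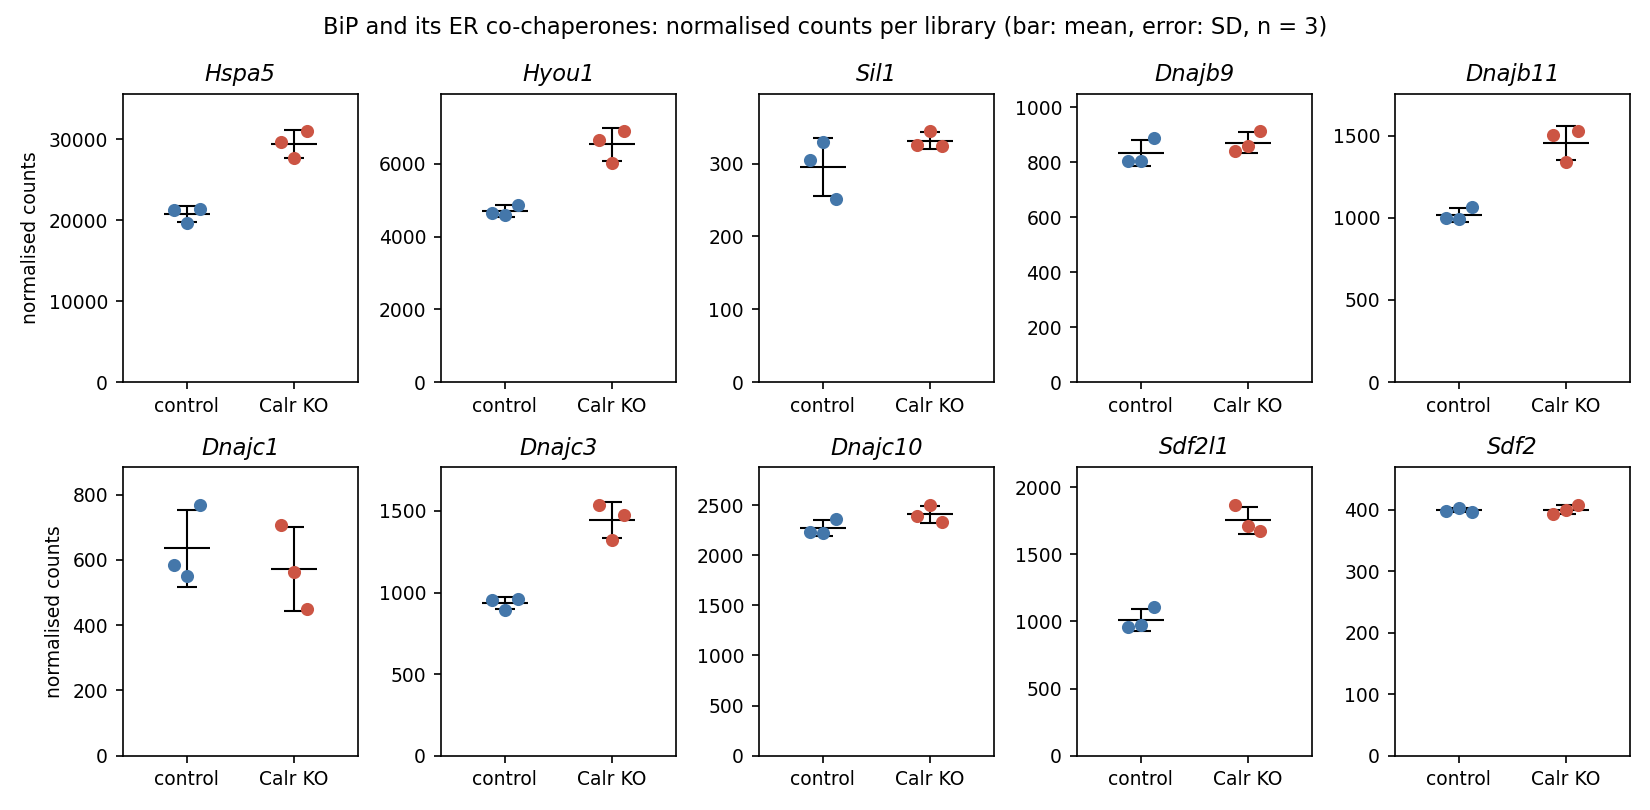
Normalised counts (y axis, from 0) of each of the 10 genes in the 3 control (blue) and 3 Calr KO (red) libraries, with the mean as a bar and the SD as error. The groups are separate for Hspa5, Hyou1, Dnajb11, Dnajc3 and Sdf2l1 and overlap for Sil1, Dnajb9, Dnajc1, Dnajc10 and Sdf2.

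Promoter sequences are shown because 4 of the genes that rose together have an entry among the RefSeq promoter windows of GRCm38.p6, which run from 250 bases before to 50 bases after the RefSeq start of a gene. An entry was found for 8 of the 10 genes, and Hyou1 and Sil1 were not matched. The ER stress response element (ERSE) was searched as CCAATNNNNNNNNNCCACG and ERSE-II as ATTGGNCCACG, on both strands. In the ERSE the first 5 letters are the box bound by NF-Y and the last 5 are the motif bound by ATF6, which were also searched alone, as CCAAT and CCACG. Capitals mark the ERSE or ERSE-II where one was matched. In Sdf2l1 they mark matches of CCAAT and CCACG on either strand, and in Sdf2 there was no match to mark.
Hspa5 (chr2:34771840-34772139, plus strand): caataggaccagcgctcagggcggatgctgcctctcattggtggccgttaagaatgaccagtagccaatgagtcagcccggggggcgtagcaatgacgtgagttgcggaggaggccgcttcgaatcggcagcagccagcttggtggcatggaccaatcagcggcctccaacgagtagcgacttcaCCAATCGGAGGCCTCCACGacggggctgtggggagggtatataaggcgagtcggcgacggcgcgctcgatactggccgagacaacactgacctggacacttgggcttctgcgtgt
Dnajc3 (chr14:118937682-118937981, plus strand): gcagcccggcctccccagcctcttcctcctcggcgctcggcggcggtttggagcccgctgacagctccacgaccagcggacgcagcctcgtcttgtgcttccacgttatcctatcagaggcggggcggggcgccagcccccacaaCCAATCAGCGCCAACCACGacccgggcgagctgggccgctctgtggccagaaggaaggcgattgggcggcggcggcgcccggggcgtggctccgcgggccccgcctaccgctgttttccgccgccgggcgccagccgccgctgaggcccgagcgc
Dnajb11 (chr16:22857595-22857894, plus strand): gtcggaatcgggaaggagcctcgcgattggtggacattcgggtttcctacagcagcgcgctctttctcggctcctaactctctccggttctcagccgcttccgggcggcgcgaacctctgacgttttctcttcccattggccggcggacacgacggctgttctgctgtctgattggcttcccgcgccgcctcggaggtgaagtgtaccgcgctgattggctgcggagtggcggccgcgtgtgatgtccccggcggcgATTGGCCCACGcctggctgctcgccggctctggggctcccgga
Sdf2l1 (chr16:17132334-17132633, minus strand): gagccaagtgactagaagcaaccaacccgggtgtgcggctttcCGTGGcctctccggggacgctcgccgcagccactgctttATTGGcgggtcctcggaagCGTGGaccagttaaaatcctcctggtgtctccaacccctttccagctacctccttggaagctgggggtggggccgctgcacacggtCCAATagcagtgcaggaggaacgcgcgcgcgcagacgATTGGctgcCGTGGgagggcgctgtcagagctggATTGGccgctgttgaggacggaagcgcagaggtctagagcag
Sdf2 (chr11:78245496-78245795, plus strand): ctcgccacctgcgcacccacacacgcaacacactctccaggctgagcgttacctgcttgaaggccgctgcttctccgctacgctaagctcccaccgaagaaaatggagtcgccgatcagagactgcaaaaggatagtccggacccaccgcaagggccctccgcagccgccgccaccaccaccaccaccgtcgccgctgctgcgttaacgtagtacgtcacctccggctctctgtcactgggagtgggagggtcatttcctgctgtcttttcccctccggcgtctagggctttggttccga

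Positions are counted along the gene's strand from its RefSeq start, with the start as 1 and no 0. Hspa5 held 1 ERSE at -65 to -47 (chromosome 2, 34772025 to 34772043). Its RefSeq start (34772090) lies 120 bases downstream of the GENCODE M21 gene start, from which the same ERSE is at 56 to 74. Dnajc3 held 1 ERSE at -105 to -87 (chromosome 14, 118937827 to 118937845), which is -149 to -131 from its GENCODE start. Dnajb11, with the same start in both annotations, held 1 ERSE-II at 8 to 18 (chromosome 16, 22857852 to 22857862). Sdf2l1 held 4 matches of CCAAT and 3 of CCACG but no full ERSE or ERSE-II. Among the genes that did not pass, Dnajb9 held 2 matches of CCACG and 1 of CCAAT, Dnajc1 held 1 of CCACG, and Dnajc10 and Sdf2 held neither. An ERSE was present in 0.119% of all 32851 promoter windows (39), and ERSE-II in 0.0365% (12). The shorter motifs were common, with CCACG in 32.8% of windows and CCAAT in 37.4%. Sdf2 had a second, overlapping window that also lacked all 4 motifs. Only exact matches were searched, so copies that differ in any fixed letter were not counted. A match is a description of the letters and does not show that a factor binds there.

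**Figure D2:**
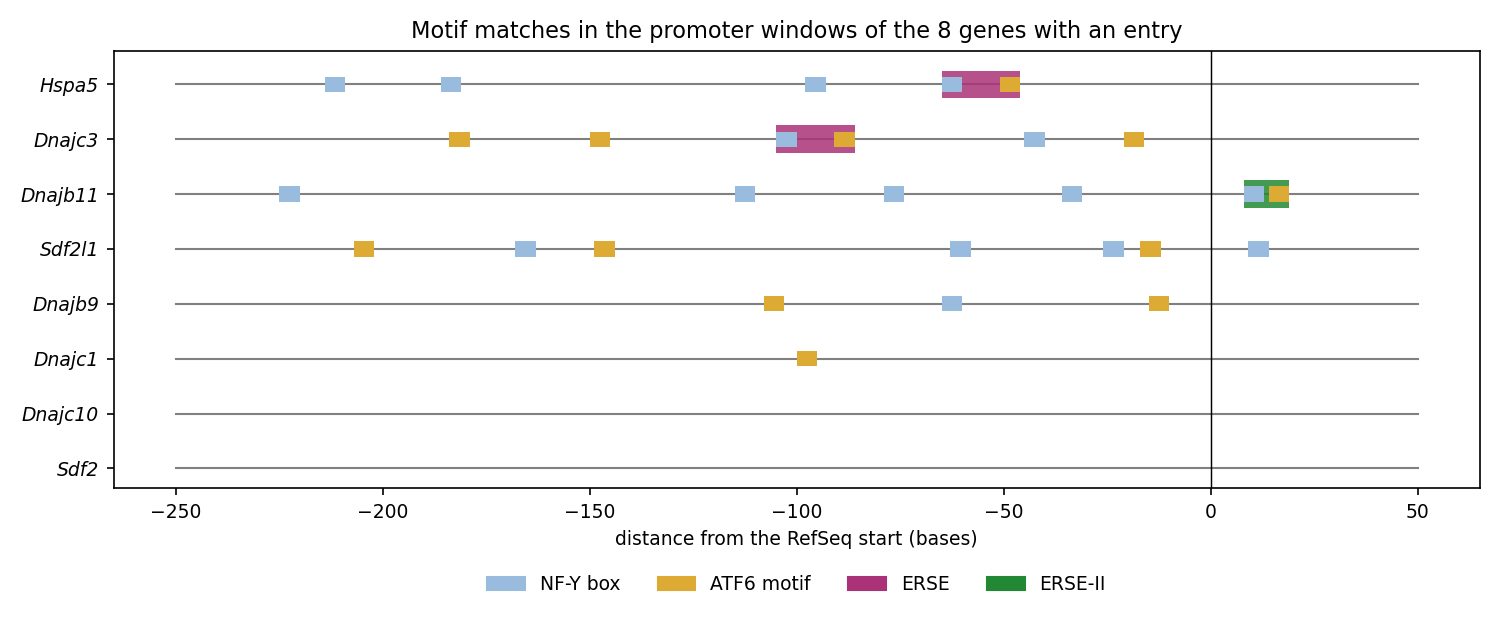
Matches of the NF-Y box (pale blue), the ATF6 motif (yellow), ERSE (purple) and ERSE-II (green) by distance in bases from the RefSeq start (x axis) in the promoter windows of the 8 genes with an entry, 1 line per gene. The 3 genes with a full element, Hspa5, Dnajc3 and Dnajb11, all rose in Calr KO cells, and Dnajc10 and Sdf2 have no match.

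Among tested genes with a promoter entry, 17 carried an ERSE in at least 1 window. Of these 6 rose, namely Hspa5, Dnajc3, Hsp90b1, Pdia6, Creld2 and Canx, which is 35.3% against 0.165% (16 of 9685) of the genes without one. Canx, which encodes the membrane-bound relative of calreticulin, passed narrowly (log2 change 0.30, limma adjusted p = 0.040). It no longer passed under robust moderation (0.0536) or in 5 of the 6 fits that left out 1 library, the exception being the fit without control replicate 1 (highest limma adjusted p = 0.1396). The 1 gene with an ERSE that fell was Calr itself, the target of the guide. The median log2 change of the 17 genes was 0.26, and that of genes without an ERSE was -0.00046. Of the 10 genes with an ERSE that did not pass, 6 had a log2 change above 0 and 4 below, from -0.29 (Acacb, limma adjusted p = 0.574) to 0.52 (Alg12, 0.243), with a median of 0.05. Of 9 tested genes with an ERSE-II 1 rose, Dnajb11, which is 11.1% against 0.217% (21 of 9693) of the genes without one. That share rests on a single gene. Herpud1, another gene with an ERSE-II, had a log2 change of 0.12 (limma adjusted p = 0.622). These counts are a description, and they include Hspa5, Dnajc3 and Dnajb11, whose rise is already given above. Whether the elements had a part in the rise was not tested. The search was made with the results of single genes known.

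Hspa5 (ENSMUSG00000026864.13, chromosome 2, positions 34771970 to 34777547, plus strand; this and the other gene positions are from GENCODE M21 on GRCm38) encodes the chaperone on which the other proteins act. In the Calr KO libraries it had 29688, 27658 and 31030 normalised counts, against 21288, 19645 and 21362 in the controls. Every Calr KO library thus lay above every control, and replicate 2 was the lowest of each group. The log2 change was 0.50 with an SE of 0.04 (limma adjusted p = 0.0014), 1.42-fold with a 95% interval of 1.32 to 1.52. The share of all normalised counts that fell to Hspa5 was 0.209% with the Calr guide and 0.148% with the control guide. The call held without each library in turn, with a highest limma adjusted p of 0.0147.

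Of the exchange factors, Hyou1 rose and Sil1 did not pass. Hyou1 (ENSMUSG00000032115.14, chromosome 9, positions 44379490 to 44392369, plus strand) encodes GRP170, a large HSP70-like protein that releases ADP from BiP and can itself hold unfolded proteins. Its Calr KO libraries held 6667, 6035 and 6901 normalised counts and its controls 4642, 4583 and 4885, with no overlap and again with replicate 2 lowest in each group. The change was 0.47 (SE 0.05, limma adjusted p = 0.0047), 1.39-fold with a 95% interval of 1.28 to 1.502. Sil1 (ENSMUSG00000024357.10, chromosome 18, positions 35266396 to 35499780, minus strand), the smaller exchange factor, had 325, 344 and 324 against 305, 329 and 252. Its groups overlapped, since control replicate 2 lay above 2 of the Calr KO libraries. Its log2 change was 0.17 (95% interval -0.08 to 0.42, limma adjusted p = 0.720), 1.12-fold with an upper bound of 1.342-fold, which lay above the lower bound of Hyou1. Within each library the log2 difference Hyou1 minus Sil1 was 4.35, 4.13 and 4.41 in Calr KO libraries and 3.92, 3.79 and 4.27 in controls. The groups overlapped, and their means differed by 0.30 (two-sided exact permutation test, p = 0.2, also 0.2 after adjustment over the 3 such differences tested).

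Of the 5 J proteins Dnajb11 and Dnajc3 rose, and Dnajb9, Dnajc10 and Dnajc1 did not pass. Dnajb11 (ENSMUSG00000004460.17, chromosome 16, positions 22857845 to 22879634, plus strand) encodes ERdj3, a soluble J protein that binds unfolded clients directly and hands them to BiP. Calr KO libraries held 1504, 1338 and 1527 normalised counts and controls 996, 991 and 1066, so the groups were separate. The change was 0.52 (SE 0.07, limma adjusted p = 0.012), 1.43-fold. Leaving out replicate 1 or 3 of the Calr KO group ended this call (limma adjusted p = 0.0800 and 0.0617), as did leaving out control replicate 1 or 2 (0.0552 and 0.0624). Dnajc3 (ENSMUSG00000022136.8, chromosome 14, positions 118937976 to 118981697, plus strand) encodes P58IPK, a luminal J protein also known as an inhibitor of the kinase PERK. It had 1538, 1322 and 1473 against 957, 895 and 961, again with no overlap and with replicate 2 lowest in each group. The change was 0.62 (SE 0.07, limma adjusted p = 0.0049), 1.54-fold with a 95% interval of 1.38 to 1.71.

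Dnajb9 (ENSMUSG00000014905.4, chromosome 12, positions 44205559 to 44210326, minus strand) encodes ERdj4, which recruits BiP to the sensor IRE1 and takes part in ER-associated degradation. Its values were 840, 861 and 913 normalised counts with the Calr guide and 804, 806 and 889 with the control guide, and the groups overlapped. The log2 change was 0.07 (95% interval -0.08 to 0.21, limma adjusted p = 0.827), so the upper bound was 1.16-fold. Of the 31-base words of its transcripts 10.8% also occur in the pseudogene Gm6568, which was listed at 1.03 or less in every library. Dnajc10 (ENSMUSG00000027006.13, chromosome 2, positions 80315466 to 80354043, plus strand) encodes ERdj5, a J protein with thioredoxin domains that reduces disulfide bonds. It had 2387, 2506 and 2334 against 2232, 2225 and 2361, with control replicate 3 above 1 Calr KO library. The log2 change was 0.08 (95% interval -0.02 to 0.19, limma adjusted p = 0.658), with an upper bound of 1.14-fold. For these 2 genes the upper bound lay below the lower bound of Hspa5 (1.32-fold).

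Dnajc1 (ENSMUSG00000026740.12, chromosome 2, positions 18195654 to 18392830, minus strand) encodes ERdj1, a membrane J protein that contacts ribosomes at the translocon. With the Calr guide it had 706, 562 and 449 normalised counts and with the control guide 584, 551 and 769, relative to its mean the widest spread of the 10 genes. The lowest library was Calr KO replicate 3 and the highest control replicate 3. Its log2 change was -0.16 (95% interval -0.54 to 0.22, limma adjusted p = 0.841), and without Calr KO replicate 3 it was 0.0046. Dnajc1 overlaps Mllt10 on the other strand, and 6.80% of the 31-base words of its transcripts occur in transcripts of other genes. No source used here states whether the counting used strand, so reads of the pair may be mixed. Mllt10 had a log2 change of -0.04 (limma adjusted p = 0.914).

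Since Hspa5 itself rose, a gene with no change is lower relative to it in Calr KO cells, and 77.3% of tested genes were so with no overlap between the groups. The log2 value of Hspa5 minus the mean of the 5 J proteins was 4.55, 4.57 and 4.73 in Calr KO libraries and 4.41, 4.33 and 4.27 in controls. The groups did not overlap, and their means differed by 0.28 (two-sided exact permutation test, p = 0.1, adjusted 0.15). The smallest p that 3 libraries against 3 allow is 0.1, so the threshold could not be reached. The difference of Dnajb11 from Hspa5 moved by 0.011 between the groups (SD 0.034 in Calr KO and 0.059 in control) and that of Hyou1 by -0.031 (SD 0.021 and 0.050), each with overlap. Dnajb9 moved by -0.44 relative to Hspa5, Dnajc10 by -0.42 and Dnajc1 by -0.66, each with no overlap, as in most tested genes. Dnajc3 moved by 0.12 (SD 0.070 in Calr KO and 0.011 in control) and Sdf2l1 by 0.29. Both were higher with no overlap, as were 0.197% of tested genes on this measure, which only genes that outpaced Hspa5 can meet. Sdf2 moved by -0.50 with no overlap, and Sil1 by -0.33 with overlap.

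Of the paralogues Sdf2l1 and Sdf2, Sdf2l1 rose and Sdf2 did not pass. Their products bind ERdj3 and help BiP keep clients from aggregating. Sdf2l1 (ENSMUSG00000022769.9, chromosome 16, positions 17130138 to 17132383, minus strand) had 1870, 1713 and 1675 normalised counts across the Calr KO libraries and 958, 970 and 1104 across the controls. All Calr KO libraries lay above all controls, and here replicate 1 was the highest in Calr KO and replicate 3 in control. The change was 0.79 (SE 0.07, limma adjusted p = 0.0014), 1.73-fold with a 95% interval of 1.56 to 1.94, the largest of the 10 genes. Sdf2 (ENSMUSG00000002064.10, chromosome 11, positions 78245746 to 78255496, plus strand) had 392, 399 and 408 against 398, 402 and 395. Its groups overlapped, and the log2 change was 0.0043 (95% interval -0.16 to 0.17, limma adjusted p = 0.992), with a sign that turned when libraries were scaled to the same upper quartile. Sdf2 overlaps Supt6 on the other strand, which shares 14.04% of its 31-base words, and Supt6 had a log2 change of 0.0040 (limma adjusted p = 0.990). Of the words of Sdf2l1 0.649% occur in other genes and none of those genes was Sdf2.

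Within each library the log2 difference Sdf2l1 minus Sdf2 was 2.25, 2.10 and 2.04 in Calr KO libraries and 1.27, 1.27 and 1.48 in controls. The groups did not overlap, and the difference between their means was 0.79 (SD 0.11 in Calr KO and 0.12 in control, two-sided exact permutation test, p = 0.1, the smallest possible, adjusted 0.15).

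**Figure D3:**
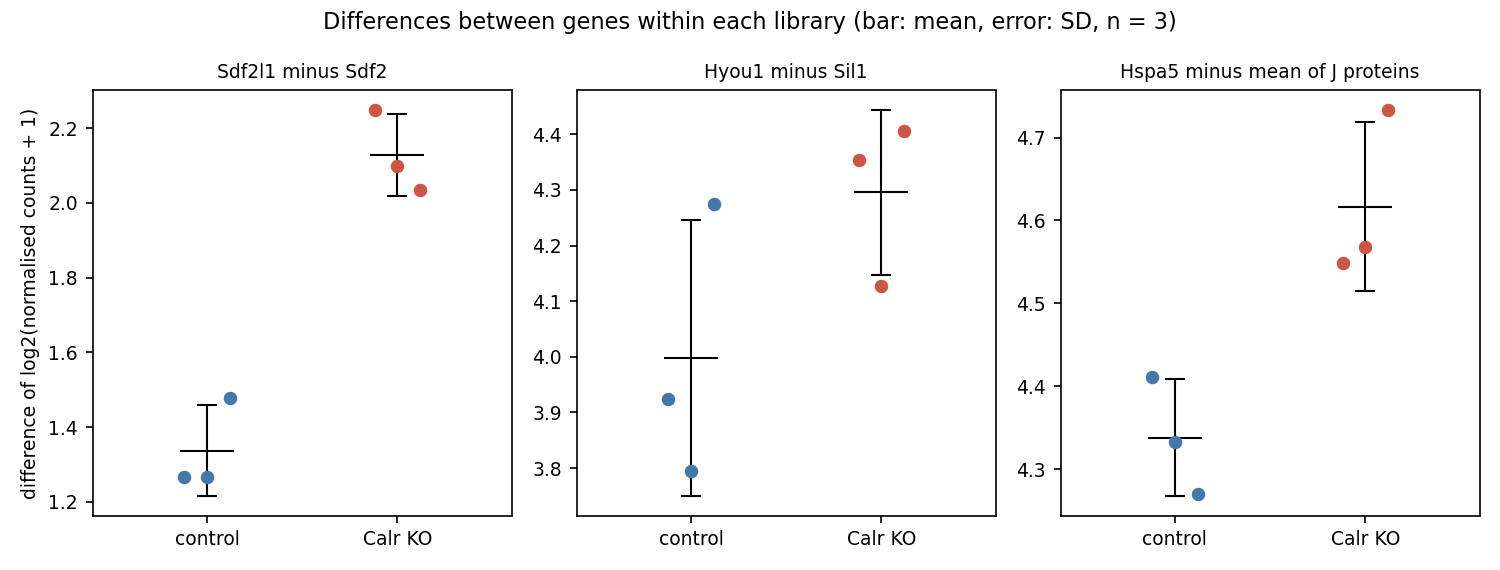
Differences of log2(normalised counts + 1) between genes within each library (y axis) in control (blue) and Calr KO (red) cells, with the mean as a bar and the SD as error (n = 3). Sdf2l1 minus Sdf2 and Hspa5 minus the mean of the 5 J proteins do not overlap between the groups, whereas Hyou1 minus Sil1 does. The y axes do not start at 0.

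Per kilobase of exon, Hspa5 exceeded the other 9 genes in both groups. Control cells had 5531 ± 259 normalised counts per kilobase of Hspa5 (SD, n = 3), followed by Hyou1 (985 ± 33.4) and Sdf2l1 (912 ± 72.9), whose ranges over the libraries overlapped. Dnajc10 came next (562 ± 19.0), then Dnajb9 (338 ± 19.7), Dnajb11 (314 ± 13.0) and Sdf2 (314 ± 2.73), of which neighbours overlapped. Dnajc3 (182 ± 7.17), Sil1 (134 ± 18.1) and Dnajc1 (73.9 ± 13.7) were the lowest and did not overlap. In Calr KO cells Sdf2l1 (1582 ± 92.9) stood above Hyou1 (1369 ± 93.8) and Dnajb11 (450 ± 31.9) above Dnajb9 (354 ± 15.2), with no overlap of either pair. The level of Hspa5 was 5.61 times that of Hyou1 in control and 5.73 times in Calr KO cells. For Dnajb9 the same ratio was 16.3 and 22.2, and for Dnajc10 it was 9.84 and 13.2. Sdf2l1 had 2.90 times the level of Sdf2 in control and 5.02 times in Calr KO cells. The lengths are those of all coding exons and UTRs of the basic protein-coding transcripts, which may not be the isoforms these cells use.

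**Figure D4:**
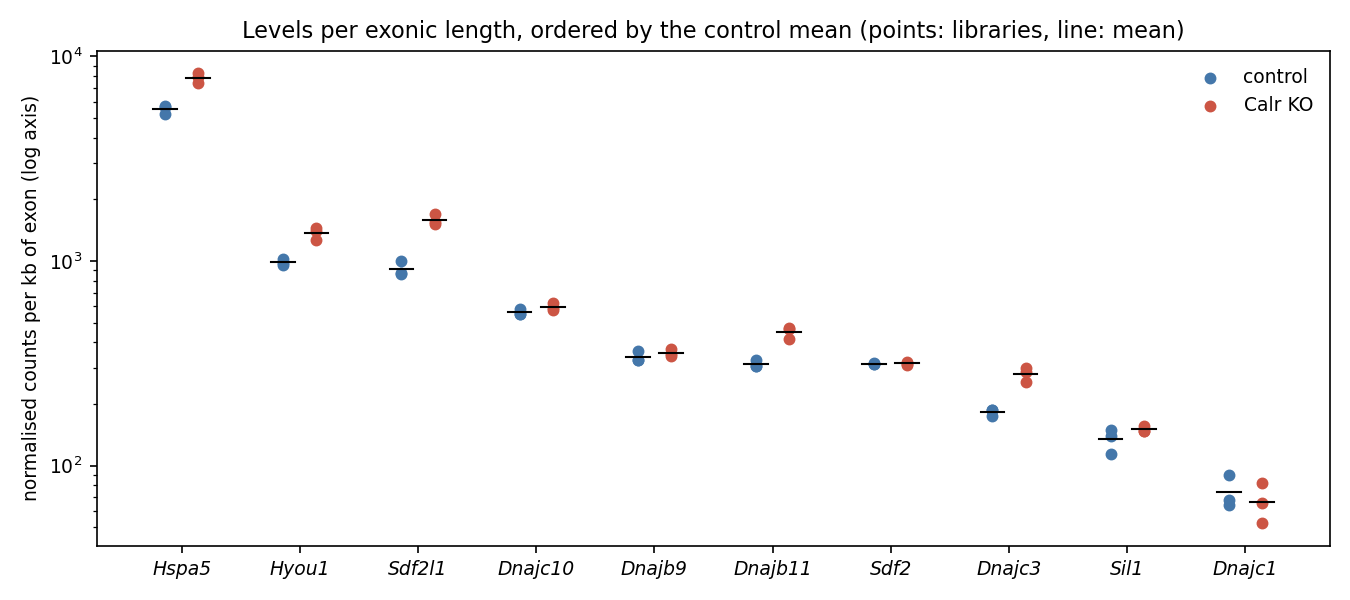
Normalised counts per kilobase of exon (y axis, log scale) of the 10 genes ordered by their control mean, with each library as a point (blue control, red Calr KO) and the mean as a line. Hspa5 is the highest in each group, at 5531 per kilobase in control and 7847 in Calr KO cells, and Dnajc1 the lowest.

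BiP works in a larger assembly with other ER folding proteins, and 4 of its 6 partners listed here rose. Over all tested genes 0.197% were called as higher. The partners and regulators were listed with earlier results of these data known. Hsp90b1, which encodes GRP94, the HSP90 chaperone of the ER, rose 1.41-fold (limma adjusted p = 7.5e-05), and the disulfide isomerases Pdia6 and Pdia4 rose 1.53-fold (6.7e-06) and 1.71-fold (7.5e-05). Ppib, a prolyl isomerase, rose 1.23-fold (limma adjusted p = 0.011). P4hb and Uggt1 did not pass (log2 changes 0.10 and 0.05). Ppib no longer passed in 4 of the 6 fits that left out 1 library, those without replicate 1 or 3 of the Calr KO group or replicate 2 or 3 of the control group (highest limma adjusted p = 0.0654). Of 4 genes listed as regulators of BiP, Manf, a secreted factor that binds BiP, rose 1.43-fold (limma adjusted p = 0.020). Its call was lost in the same 4 fits (highest limma adjusted p = 0.0958). Ficd, the enzyme that adds AMP to BiP, had 62.8 ± 12.9 against 56.6 ± 13.7 normalised counts and did not pass. Cdnf, a relative of Manf, had 61.5 normalised counts in control replicate 1 and at most 7.48 in the other libraries. Hspa13, an HSP70 gene placed in this list, had 1316 ± 7.65 against 1250 ± 19.6 normalised counts. Its groups did not overlap, as in 14.8% of tested genes in either direction, and it did not pass (log2 change 0.07, limma adjusted p = 0.715).

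Other genes of the HSP70 system were read from the same fit. Of 6 further J proteins of the ER 0 passed limma's test over all genes, and 1 had an unadjusted p under 0.05, as 8.88% of all tested genes did. That gene was Sec63, the J protein of the translocon, with a log2 change of 0.13 (limma adjusted p = 0.505), and Dnajb14 had 0.11. Of 9 HSP70 genes outside the ER 7 were tested and 0 passed, with 0 at an unadjusted p under 0.05. Their most abundant members, the cytosolic Hspa8 and the mitochondrial Hspa9, had 41362 ± 997 against 41219 ± 448 and 8416 ± 173 against 8164 ± 24.8 normalised counts. Of 16 J proteins outside the ER 0 passed (2 at an unadjusted p under 0.05, Dnaja2 at 0.15 and Dnajc5 at -0.16, beside 8.88% of all tested genes). Dnaja1, with the highest mean, was at -0.0053. Of 11 exchange factors outside the ER 1 fell, Hspa4l, by 0.26 on the log2 scale (limma adjusted p = 0.0047). Over all tested genes 0.28% were called in either direction, so lists of these sizes would mostly hold 0 calls. Medians of the log2 changes were 0.40 for the partners, 0.12 for the regulators, 0.05 for the other ER J proteins, 0.017 for the HSP70s, 0.03 for the J proteins and 0.015 for the exchange factors outside the ER. Whether the ER genes differed from the lists outside the ER was not tested. The signs of Hspa8 and Dnaja1 turned when single libraries were left out, and that of Hspa8 also when libraries were scaled to the same upper quartile.

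**Figure D5:**
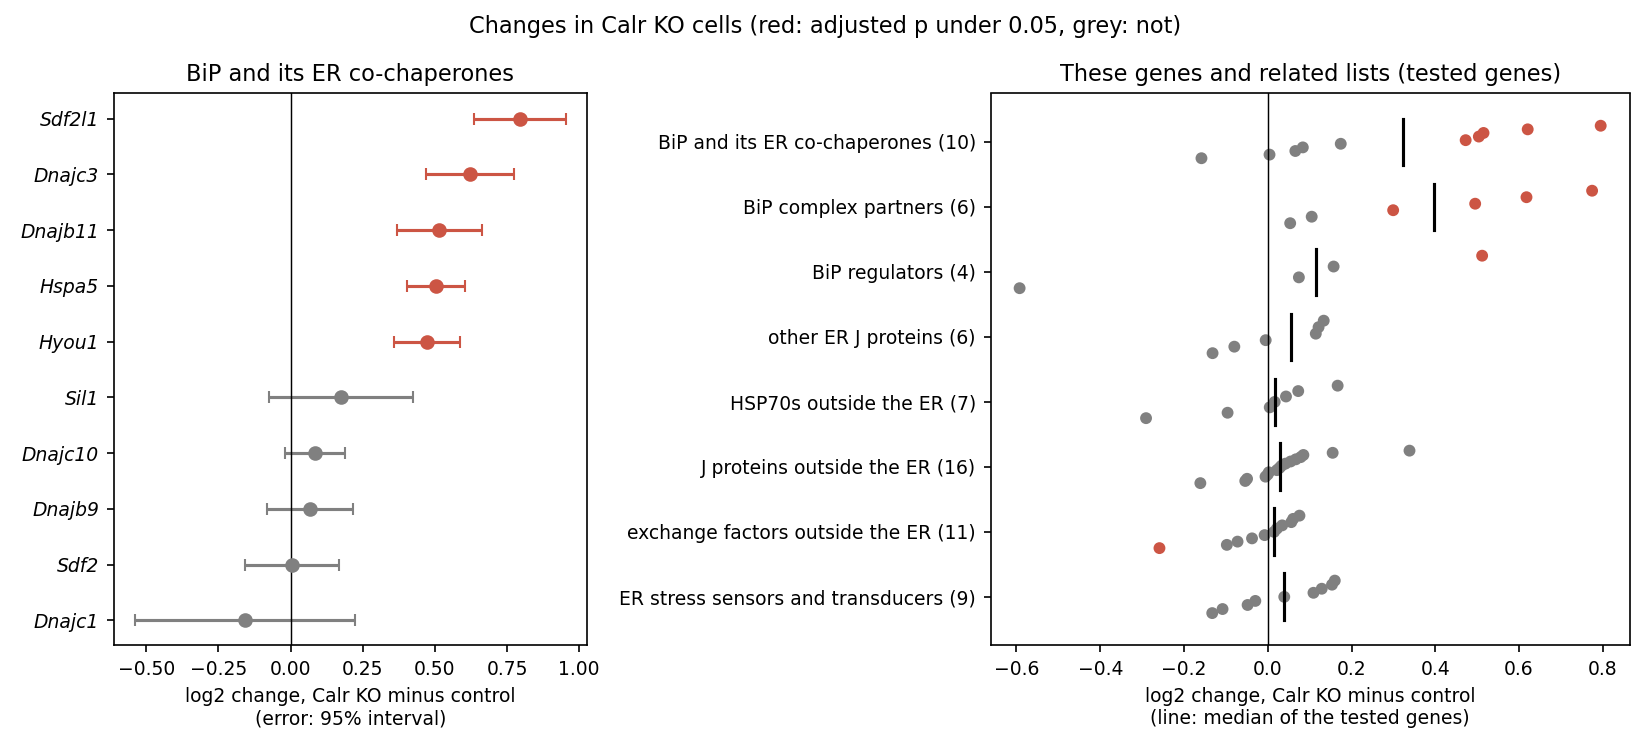
Left, log2 change of each of the 10 genes (x axis, Calr KO minus control) with its 95% interval; right, log2 changes of the tested genes of 8 lists, with their number in brackets and the median as a line. Red marks a limma adjusted p under 0.05. The 5 red genes at the left lie between 0.47 and 0.79. The lists outside the ER centre near 0, as do the other ER J proteins and the ER stress sensors and transducers.

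The sensors that BiP restrains were not called at the mRNA level. Of 9 genes for sensors and transducers 0 passed limma's test over all genes. Since 0.28% of all tested genes passed in either direction, a list of this size would mostly hold 0 calls. At an unadjusted p under 0.05 there were 4, beside 8.88% of all tested genes. These were Ern1 (log2 change 0.13), Xbp1 (0.15), Atf6b (0.16) and Atf6. In each of the 4 the groups did not overlap, with Ern1, Xbp1 and Atf6b higher and Atf6 lower in Calr KO cells. Over all tested genes 14.8% did not overlap in either direction. Genes picked by a low p tend to be separate, so this adds little to the p. The lowest Calr KO and highest control values were 1342 and 1340 for Atf6b and 2212 and 2207 for Ern1. Atf6, the sensor whose released fragment binds ERSE-type elements, had a log2 change of -0.13 (limma adjusted p = 0.307), with 3716 ± 89.2 against 4074 ± 74.8 normalised counts. Atf4, a transcription factor downstream of PERK, had 11142 ± 513 against 11368 ± 348. The list's median was 0.04. Cleavage of ATF6 and splicing of Xbp1 were not measured by these gene totals.

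Genes whose profile over the 6 libraries was most like that of Hspa5 were sought among 3416 other genes with a mean of at least 1000, by the root mean square distance between log2 values centred on each gene's mean. The 5 nearest were Hyou1 (0.035), Hsp90b1 (0.036), Manf (0.039), Dnajb11 (0.040) and Rpn1 (0.050), a subunit of oligosaccharyltransferase. Rpn1 had a log2 change of 0.41 (limma adjusted p = 0.012), not passed without replicate 1 or 3 of the Calr KO group (0.0654 and 0.0549). Dnajc3 ranked 8, Sdf2l1 ranked 61 (0.172) and Dnajc10 ranked 465 (0.227). For Sdf2l1 the nearest were Pdia3 (0.085), Pdia4 (0.092), Dnajc3 (0.117), Pdia6 (0.118) and Dnajb11 (0.159), and Hspa5 ranked 7. Centring used the mean over both groups, so a distance largely restates how alike 2 log2 changes are. The 5 genes nearest to Hspa5 had log2 changes of 0.41 to 0.52, against 0.50 for Hspa5. Sil1, Dnajb9, Dnajc1 and Sdf2 had means under 1000 and were not ranked. The distances describe these libraries, in which all genes share the same wells and scaling.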

How the data were processed

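The 3 Calr KO and 3 control libraries used total RNA and a SMARTer kit, per the labels' protocols. The authors deposited 1 table of signal values per gene and library, which per the labels are gene counts normalised with DESeq2. Salmon 0.14.1, STAR 2.6.1d, mm10 and DESeq2 1.34.0 are listed, without their roles, in the submitters' processing notes. Which annotation release was used is not stated in them. The most frequent low value, taken as 1 read, was 0.945 to 1.04. Between 79.3% and 82.9% of values under 1.5 reads, but 3.44% to 4.31% of values of 100 to 1000 reads, were whole multiples of it within 0.02, so no count model was run.

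limma 3.58.1 (R 4.3.3) was fitted to log2(value + 1) (mean of at least 10, variance prior following the mean, two-sided, Benjamini-Hochberg over 13199 genes, threshold 0.05), and SciPy 1.17.1 gave the exact permutation tests. The limma step was run on simulated data, with independent normal log2 values for each gene and library and the same variance prior. That check did not compare variance priors and did not model wells of a shared population. Fold changes are ratios of group means, log2 changes are on the log2(value + 1) scale, and the text gives means ± SD. Of the table's symbols 96.4% were in GENCODE M21. The genes, the 7 related lists (61 genes), the 5 marker lists and the motifs were chosen with earlier results of these data known. Named were all 10 genes and Calr, from each list up to 4 genes that passed or, if none did, the 2 of highest mean, and the 5 nearest profiles of Hspa5 and of Sdf2l1. P4hb, Uggt1, Ficd, Hspa13, Ern1, Xbp1, Atf6b, Dnajc5 and Cdnf were named after their values were seen. So were the marker genes, genes carrying a motif and genes sharing sequence. Alternatives were pseudocounts, filters, scalings, variance priors, a replicate block, and fits without 1 library.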

Additional observations from a re-analysis of the deposited data

How the results depend on the processing

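Over 16 alternative settings, 5 of the 10 genes were called under other pseudocounts, filters, scalings and robust moderation, and 4 or 5 with each library left out in turn, where Dnajb11 was the gene lost. With a single variance prior 0 of the 10 and 2 of all genes passed. Over all genes, the fits that left out 1 library gave between 20 and 34 calls against 37 with all libraries, and the lowest were those without replicate 1 (20) or 3 (21) of the Calr KO group or replicate 2 or 3 (22 each) of the controls. The call of Hspa5, Hyou1, Dnajc3 and Sdf2l1 held in each of these 6 fits. Over all tested genes, samples of the same replicate number did not deviate together (correlations of -0.056, -0.011 and 0.0014). For Hspa5, Hyou1, Dnajb11 and Dnajc3, however, replicate 2 was the lowest of each group. Whether wells of the same number share an effect on such genes was not tested. With the replicate block 5 of the 10 genes and 26 of all genes passed, and the within-library differences kept their values of 0.79, 0.30 and 0.28, each at an exact permutation p of 0.25 from sign changes within numbers, the smallest possible. Signs near 0 turned for genes that did not pass, and the cause was not tested. Scaling to the same upper quartile gave -0.0064 for Sdf2 and -0.0059 for Hspa8. Over the fits without 1 library, log2 changes ran from -0.32 to 0.0046 for Dnajc1, -0.010 to 0.018 for Sdf2, -0.065 to 0.00039 for Atf4, -0.0083 to 0.025 for Hspa8, -0.045 to 0.032 for Dnaja1 and -0.049 to 0.30 for Ficd. At the levels of Sil1 and Sdf2 counting alone gives a CV of 5.00% to 5.82%, and genes with lower levels, such as Ficd and Cdnf, are measured less precisely.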
